A study of Mus musculus with 4 samples.

Results

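The genes described here are 54 transcription factors that pattern the hypothalamus during development, taken by symbol from the 32285 genes of each deposited matrix. All 54 symbols were found, and all 54 had at least 1 unique molecular identifier (UMI, a counted RNA molecule) in the nuclei analysed. They were read in nuclei of mice of about 18 months of age, isolated from the whole hypothalamus after freezing. The study set mice that received a graft of human hypothalamic stem cells, made from pluripotent cells, against control mice without it. Strain and sex of the mice are not given in the sources used here, and some sample titles join the codes of more than 1 animal without saying whether nuclei were pooled. The matrices labelled transplanted held the same nuclei as those labelled control: 3997 of 4008 barcodes (99.7%) of control replicate 1 and 2144 of 2150 (99.7%) of control replicate 2 were in the transplanted matrix of the same number, while the control matrices shared 4 barcodes. The data therefore hold 2 distinct libraries, called library A (control replicate 1) and library B (control replicate 2), and levels are given for these. Where nothing says that the libraries come from separate animals, p-values measure only the spread between these samples.

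Library A held 4008 nuclei and 8779880 UMIs and library B 2150 nuclei and 4924563 UMIs, with medians of 1813 and 2049 UMIs per nucleus. Nuclei were grouped without using any of the 54 genes and named from marker genes, so that each class is one of nuclei like the named type. The name tanycyte or ependymal rests on a rule added after the data were seen. Neurons made up 2926 of 4002 nuclei of library A and 1382 of 2108 of library B. The other classes were astrocytes (325 and 200 nuclei), oligodendrocytes (367 and 284), oligodendrocyte precursors (135 and 72), tanycytes or ependymal cells (115 and 43) and microglia (66 and 46). A further 68 and 81 nuclei (1.70% and 3.84%) carried markers of more than 1 class and were set aside after the data were seen. Median depth was 2257 (A) and 2640 (B) UMIs for neurons and 668 and 683.5 for oligodendrocytes.

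Patterning transcription factors divide the embryonic hypothalamus into territories and give each the neurons it will hold. Homeodomain proteins such as Nkx2-1 and Rax set up the hypothalamic field, Sim1 and Otp are needed for the neuroendocrine neurons of the paraventricular nucleus, Nr5a1 for the ventromedial nucleus, Lmx1a, Lmx1b and Foxb1 mark the posterior and mammillary territory, and the Dlx genes drive the GABAergic programme. Many of these genes stay on in the adult, where they mark groups of neurons.

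Promoters are shown for 4 members that the results below turn on: Sim1 and Otp, which were found together in more neurons than expected, Lmx1a, which was nearly restricted to 1 group of neurons, and Isl1, which was higher in GABAergic neurons. Each sequence is the 250 bases before the start of the gene in the RefSeq table for GRCm38.p6, read 5′ to 3′ on the gene's strand. Capitals mark TAAT, the core that many homeodomain proteins bind, or ATTA, the same core on the other strand. The windows are chr10:50895401-50895650 (plus strand) for Sim1, chr13:94875386-94875635 (plus strand) for Otp, chr1:167689308-167689557 (plus strand) for Lmx1a and chr13:116309689-116309938 (minus strand) for Isl1.
Sim1: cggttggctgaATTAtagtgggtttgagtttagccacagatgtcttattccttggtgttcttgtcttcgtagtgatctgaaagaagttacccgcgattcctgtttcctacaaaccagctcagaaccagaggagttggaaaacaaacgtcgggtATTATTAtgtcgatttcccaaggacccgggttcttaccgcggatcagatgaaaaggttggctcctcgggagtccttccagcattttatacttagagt
Otp: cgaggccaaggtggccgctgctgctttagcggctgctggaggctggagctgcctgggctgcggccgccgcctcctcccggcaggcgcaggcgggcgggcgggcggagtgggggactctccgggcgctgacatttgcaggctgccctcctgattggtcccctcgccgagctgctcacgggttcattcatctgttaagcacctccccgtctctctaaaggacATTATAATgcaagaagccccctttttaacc
Lmx1a: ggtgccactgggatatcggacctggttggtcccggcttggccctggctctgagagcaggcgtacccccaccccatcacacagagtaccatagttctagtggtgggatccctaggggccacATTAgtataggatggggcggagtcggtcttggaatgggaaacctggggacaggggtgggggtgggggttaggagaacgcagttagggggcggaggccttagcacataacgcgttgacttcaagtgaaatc
Isl1: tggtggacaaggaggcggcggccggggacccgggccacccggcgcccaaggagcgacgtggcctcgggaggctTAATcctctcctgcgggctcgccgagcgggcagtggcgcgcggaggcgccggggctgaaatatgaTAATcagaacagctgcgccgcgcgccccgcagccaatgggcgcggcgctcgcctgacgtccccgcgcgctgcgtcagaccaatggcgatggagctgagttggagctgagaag

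The core occurred 3 times in the Sim1 window, 2 times each in those of Otp and Isl1 and once in that of Lmx1a. It was found in 25 of the 56 promoters listed for 40 members (44.6%) and in 54.9% of all 32851 promoters of the table, so the windows of the members did not hold it more often. The 250 bases before Dlx1 and before Ebf3 held no match, with G or C at 68.0% and 80.0% of their bases against 45.6% before Sim1. A match of this length is a description of the letters and not a binding site.

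In neurons, the share of nuclei with at least 1 UMI of a member ranged from 0 for Rax to 68.5% and 79.4% for Rora. The mean share over the libraries was under 1% for 19 members, 1 to 5% for 22, 5 to 20% for 8 and above 20% for 5. These shares are not corrected for gene length, so their order between genes is not an order of RNA amount. The median neuron held UMIs of 3 members (A) or 4 (B), and 2.84% and 1.45% of neurons held none.

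**Figure D1:**
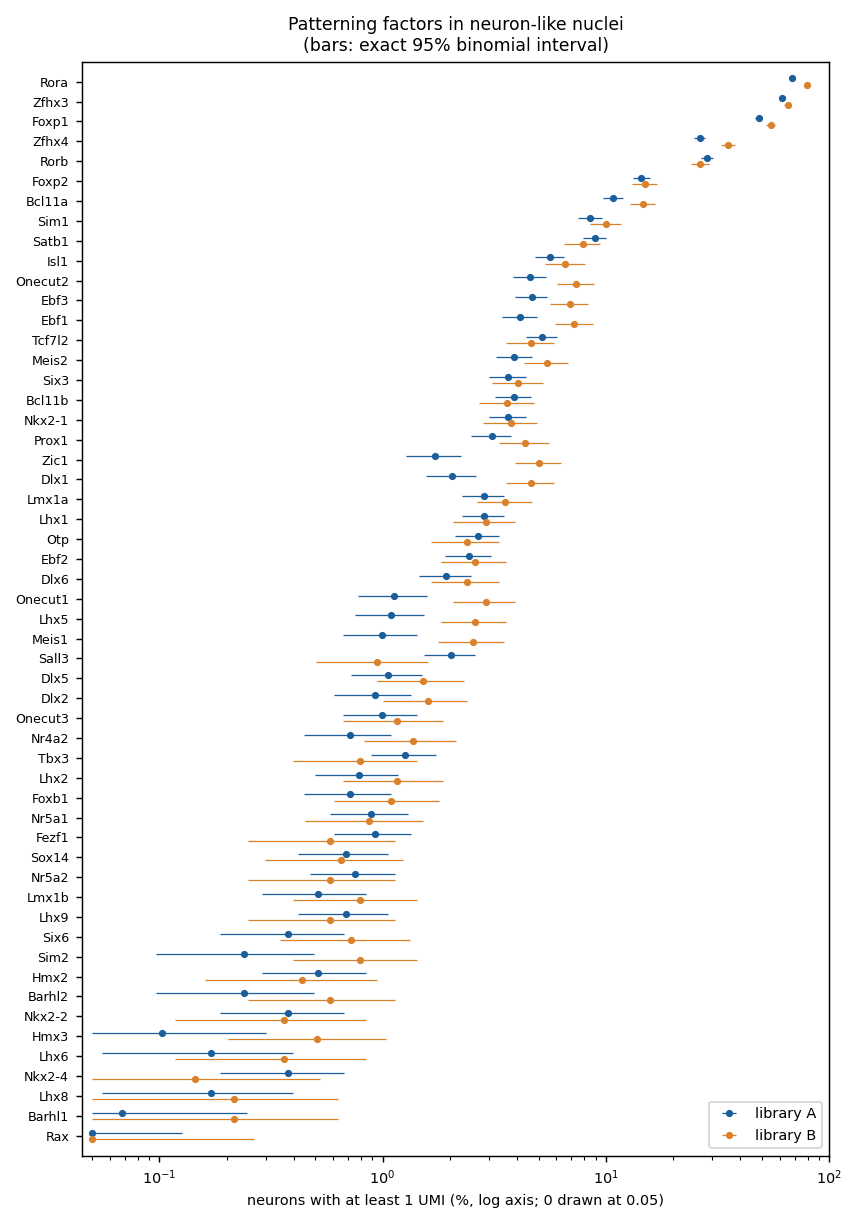
Percentage of neurons with at least 1 UMI (log axis) for each of the 54 members in library A (blue) and library B (orange), with exact 95% binomial intervals that cover counting error only. Rora, Zfhx3, Foxp1, Zfhx4 and Rorb stand above 20%, while Rax had 0 UMIs in neurons and is drawn at the left edge.

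The members found in the most neurons were broadly acting factors. Rora, a nuclear receptor that works with the circadian clock, had the highest shares (above). Zfhx3, a zinc finger homeodomain protein of the suprachiasmatic nucleus among other places, was detected in 61.3% and 65.3%. Foxp1, a forkhead repressor, was detected in 48.4% and 54.6%, and its relative Foxp2 in 14.4% and 14.9%. All 4 were detected in a larger share of the neurons of library B, by little for Foxp2. The neurons of library B also had the higher median depth. Zfhx4 stood at 26.3% and 35.2%, and Rorb, a second receptor of the Rora family, at 28.4% and 26.4%.

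Factors of single territories were found in far fewer neurons. Sim1, the paraventricular factor, was detected in 8.51% and 9.99% of neurons, and Otp, its partner in neuroendocrine development, in 2.67% and 2.39%. Nkx2-1, the early regulator of the ventral hypothalamus, stood at 3.66% and 3.76%. The ventromedial factors Nr5a1 (0.889% and 0.868%) and Fezf1 (0.923% and 0.579%) were below 1%, and so was the mammillary factor Foxb1 in library A (0.718%, with 1.09% in library B). Tbx3, a T-box factor of the arcuate nucleus, was detected in 1.26% and 0.796%.

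The LIM homeodomain family ranged widely. Isl1, used by arcuate and other GABAergic neurons, was detected in 5.60% and 6.58% of neurons, Lmx1a in 2.84% and 3.55%, and Lhx1, a factor of the suprachiasmatic nucleus and the mammillary region, in 2.84% and 2.89%. Lhx9 (0.684% and 0.579%), Lmx1b (0.513% and 0.796%), Lhx6 (0.171% and 0.362%) and Lhx8 (0.171% and 0.217%) were each below 1%, the last on 9 UMIs in all. Barhl1, with 5 neuronal UMIs, and Hmx3, with 10, both homeodomain factors, were as rare. Hmx2, the relative of Hmx3, had 24 and Six6, an eye and suprachiasmatic factor, had 21.

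For most members the counting intervals of the libraries overlapped, and Zic1, a zinc finger factor of the anterior midline, was among the exceptions. Its share was 1.71% (exact 95% interval 1.27 to 2.25%) for library A and 4.99% (3.91 to 6.28%) for library B. Dlx1 showed the same order with 2.05% and 4.63%, and Sall3, a zinc finger protein, the opposite order with 2.02% and 0.941%. With 1 library on each side, differences between these libraries have no replicate check.

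Neurons were split by transmitter genes. Those with a UMI of the vesicular glutamate transporter gene Slc17a6 and none of Slc32a1, Gad1 or Gad2 were called glutamatergic (762 of 2926 for library A and 318 of 1382 for library B), and those with the reverse GABAergic (1072 and 554). The remaining neurons, 1003 and 472 with none of these genes and 89 and 38 with both sides, were left out. UMIs were summed per class and library and are given as CPM, counts scaled to a common total per class. The 2 classes were compared within libraries with edgeR's quasi-likelihood test over 12000 genes.

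Of the 34 members with enough counts to be tested, 11 were higher in glutamatergic neurons and 9 were lower at an adjusted p of 0.05. Over all genes tested, 3.19% were higher and 1.64% lower, 4.83% in all. The EBF proteins, Sim1, Lmx1a and Nr5a1 were on the glutamatergic side, and the Dlx genes, Meis2, Isl1, Six3 and Prox1 on the GABAergic side. The median log2 difference was 0.18 over the members tested and -0.001 over all genes. Among the called members, CPM values of the classes overlapped between libraries for Zfhx4. The calls were made on these same values, so lack of overlap for the others is not a separate result. The share of all genes without overlap is not given here.

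**Figure D2:**
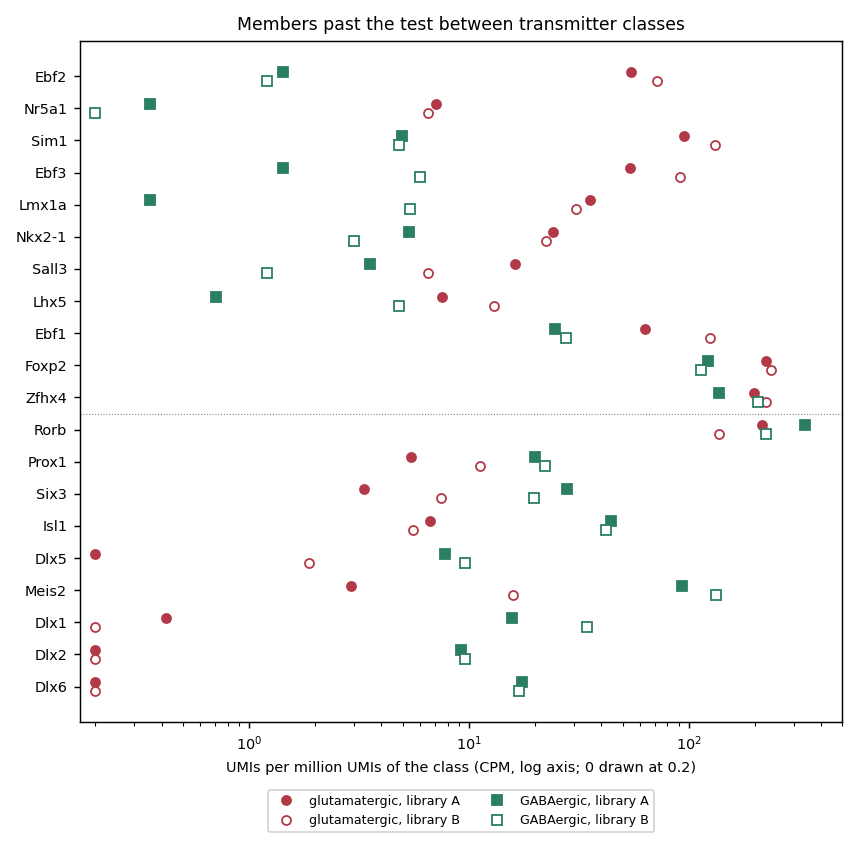
Level (CPM, log axis, 0 drawn at the left edge) of the 20 members past the edgeR test, in glutamatergic (red circles) and GABAergic (green squares) neurons of library A (filled) and library B (open). The 11 members above the dotted line are higher in glutamatergic neurons, and the level of Dlx2 and Dlx6 in glutamatergic neurons is 0 in both libraries.

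The EBF proteins, helix-loop-helix factors of neuronal differentiation, were all higher in glutamatergic neurons. Ebf2 stood at 54.7 and 71.8 CPM in glutamatergic neurons of libraries A and B and at 1.42 and 1.20 in GABAergic neurons. Its log2 difference was 5.49 ± 0.30 (n = 2 libraries, edgeR adjusted p = 5.96e-10). Values after ± are the size of the log2 difference over the square root of edgeR's F statistic. They use a spread moderated over genes and are not a standard error of the 2 library values. Ebf3 stood at 53.8 and 91.3 CPM against 1.42 and 6.02, and Ebf1 at 63.4 and 125 against 24.5 and 27.7. The groups were far apart for Ebf2 and Ebf3 and closer for Ebf1, with log2 differences of 4.46 ± 0.27 for Ebf3 (edgeR adjusted p = 2.24e-09) and 1.78 ± 0.17 for Ebf1 (edgeR adjusted p = 1.64e-06). The gene 4930438E09Rik and others lie on the opposite strand of Ebf2, and whether counting used the strand is not stated in the sources used here.

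Sim1 was higher in glutamatergic neurons as well. Its level was 95.6 and 132 CPM there against 4.98 and 4.81 in GABAergic neurons, a log2 difference of 4.51 ± 0.21 (edgeR adjusted p = 3.87e-11). Otp, found with Sim1 more often than expected (below), did not pass, with 11.3 and 11.2 CPM against 12.4 and 6.02 and an edgeR adjusted p of 0.872. The library values of Otp overlapped between the classes.

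The posterior and ventromedial factors followed Sim1. Lmx1a was at 35.5 and 30.8 CPM in glutamatergic neurons against 0.355 and 5.41, a log2 difference of 3.94 ± 0.44 (edgeR adjusted p = 8.35e-06). Nkx2-1 was at 24.2 and 22.4 CPM against 5.33 and 3.01, with 2.43 ± 0.32 (edgeR adjusted p = 6.62e-05). Nr5a1 had 24 UMIs in glutamatergic neurons and 1 in GABAergic neurons, a ratio of 31.0 with an exact 95% counting interval of 5.05 to 1273. Its log2 difference passed the test (edgeR adjusted p = 0.00119). Sall3 (16.3 and 6.52 CPM against 3.55 and 1.20) and Lhx5, a LIM factor of the mammillary region (7.51 and 13.0 against 0.711 and 4.81), also passed, with edgeR adjusted p = 0.00168 and 0.0142. All of these stood higher in both libraries.

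Among widely detected members the differences were small. Foxp2 was at 225 and 236 CPM in glutamatergic neurons and at 123 and 114 in GABAergic neurons, a log2 difference of 1.0 ± 0.10 (edgeR adjusted p = 1.36e-06). Zfhx4 was at 197 and 224 CPM against 137 and 206, with 0.40 ± 0.11 (edgeR adjusted p = 0.0328), and here the libraries of the classes overlapped. Rorb was the one of this group that was lower in glutamatergic neurons, at 216 and 137 CPM against 338 and 224, with -0.61 ± 0.09 (edgeR adjusted p = 0.000249). Rora (0.25 ± 0.08, edgeR adjusted p = 0.0893), Zfhx3 (-0.17 ± 0.09, 0.391) and Foxp1 (0.16 ± 0.09, 0.433) did not pass. An alternative chosen after seeing the data left out 7 neuron clusters with more leading markers of another class than of neurons. In most of them this was 1 marker among the leading genes. The log2 difference of Rorb was then 0.12 (edgeR adjusted p = 0.733). The clusters left out included cluster 8, with 1 oligodendrocyte marker (Prr5l), which holds the highest level of Rorb.

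The Dlx genes, which drive the GABAergic programme of the forebrain, were all higher in GABAergic neurons where tested. Dlx6 had 0 UMIs in glutamatergic neurons of either library and 17.4 and 16.8 CPM in GABAergic neurons, at least 19.9-fold lower against a floor of 3 counts over the glutamatergic group (edgeR adjusted p = 9.26e-06). Dlx2 likewise had 0 UMIs against 9.24 and 9.63 CPM, at least 10.9-fold lower (edgeR adjusted p = 0.000273). Dlx1 had 1 UMI in glutamatergic and 101 in GABAergic neurons, a GABAergic to glutamatergic ratio of 78.3 (counting interval 13.7 to 3122, edgeR adjusted p = 2.89e-06). Dlx5 had 2 against 38 UMIs, a ratio of 14.7 (3.81 to 126, edgeR adjusted p = 0.0046). Transcripts on the opposite strand of Dlx6, among them Dlx6os1, can share reads with it.

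Other homeodomain members were also higher in GABAergic neurons. Meis2, a TALE homeodomain factor, was at 2.92 and 15.8 CPM in glutamatergic neurons and at 93.1 and 133 in GABAergic neurons, a log2 difference of -3.85 ± 0.25 (edgeR adjusted p = 6.46e-09). Isl1 was at 6.68 and 5.59 CPM against 44.4 and 42.1, with -2.72 ± 0.25 (edgeR adjusted p = 6.98e-07). Six3, an anterior forebrain factor, was at 3.34 and 7.45 CPM against 28.1 and 19.9, with -2.37 ± 0.35 (edgeR adjusted p = 0.000221). Prox1, the prospero homeodomain factor, was at 5.43 and 11.2 CPM against 19.9 and 22.3, with -1.44 ± 0.31 (edgeR adjusted p = 0.00757). The libraries of the classes did not overlap for these members, and the calls were made on the same values.

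Members that did not pass included some with sizeable differences. Nr4a2, an orphan nuclear receptor known from dopaminergic neurons, was at 5.43 and 7.45 CPM against 0 and 3.01 (log2 difference 2.50 ± 0.72, edgeR adjusted p = 0.0545). Zic1 was at 5.43 and 9.32 CPM against 9.24 and 26.5 (-1.09 ± 0.34, edgeR adjusted p = 0.0801). Satb1, a chromatin organiser, was at 78.0 and 36.3 CPM against 49.8 and 36.7 (0.53 ± 0.16, edgeR adjusted p = 0.0816), with overlapping libraries. Tcf7l2, the Wnt pathway effector, stood at 0.76 ± 0.25 (edgeR adjusted p = 0.119) and Lhx1 at 0.07 ± 0.30 (edgeR adjusted p = 0.965).

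The 20 members too rare to be tested are given by their UMIs. Fezf1 had 21 in glutamatergic and 1 in GABAergic neurons (ratio 27.1, counting interval 4.36 to 1120), Lmx1b 14 and 1 (18.1, 2.75 to 764), Lhx9 15 and 4, and Foxb1 19 and 4. On the other side, Tbx3 had 3 and 33 (GABAergic to glutamatergic ratio 8.53, 2.67 to 43.4), Six6 2 and 16, Hmx2 3 and 14, Lhx6 0 and 10, and Lhx8 and Hmx3 0 and 7 each. Barhl1 had 1 and 0. These counts pool 2 libraries and carry counting error only.

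The number of calls depended on the model. All 20 called members had the same sign in each library taken alone. They were called on the sums of these libraries, so this is not a separate check. DESeq2 called 6 members higher and 5 lower, and edgeR without the library as a block 3 and 4. Lhx5, Lmx1a, Nr5a1, Sall3, Zfhx4, Dlx5, Six3, Rorb and Prox1 did not pass in DESeq2. Ebf2, Sim1, Ebf3, Dlx1, Dlx6, Meis2 and Isl1 passed in all 3.

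Pairs of members were then counted in single neurons. For each pair, the number of neurons with a UMI of both was divided by the number expected if the genes were independent among neurons of like depth, in 10 strata of total UMIs per library. Pairs share nuclei, libraries and depth, and the ratios are a description without a test. Of 191 pairs with at least 10 neurons observed or expected in each library, 10 had a ratio of 2 or more in both libraries. A pair with few expected neurons entered this set only through at least 10 observed, which fixed its ratio above 2. In both libraries this held for Ebf2-Ebf3, Lmx1a-Ebf2, Ebf1-Ebf2 and Lmx1a-Ebf1. No pair of the 159 with at least 10 expected had a ratio of 0.5 or less in both. The high and low counts thus come from unlike filters.

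**Figure D3:**
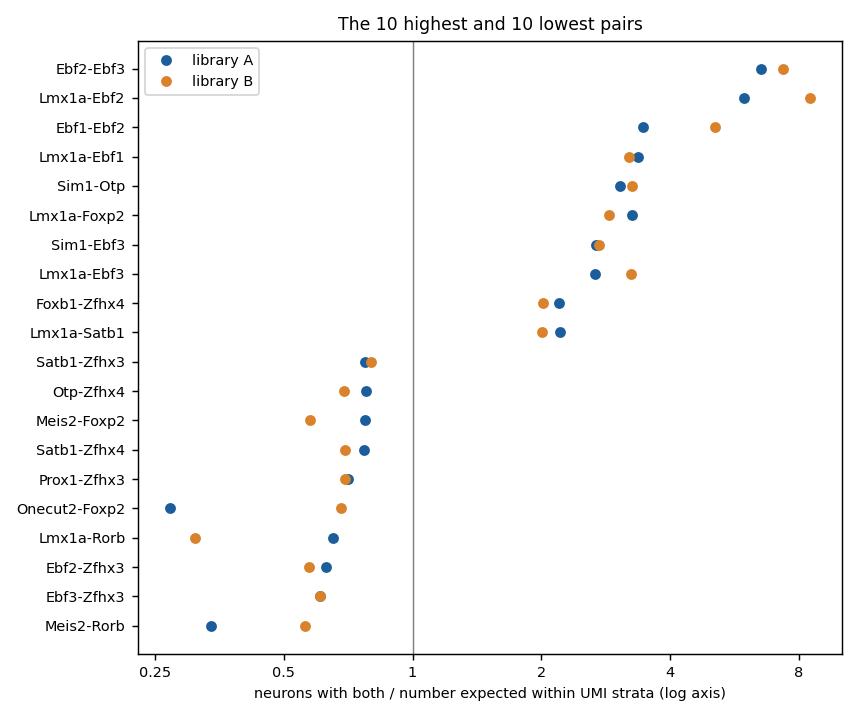
Observed over expected number of neurons with both members of a pair (log axis), for the 10 highest and 10 lowest pairs, in library A (blue) and library B (orange). Ebf2-Ebf3 and Lmx1a-Ebf2 are the highest at 5.97 to 8.51 times the expected number, and Meis2-Rorb heads the lowest at 0.338 and 0.561.

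The highest pairs were formed by Lmx1a and the EBF proteins. Ebf2 and Ebf3 were found together in 27 (A) and 20 (B) neurons, against 4.13 and 2.72 expected, ratios of 6.54 and 7.35. Lmx1a and Ebf2 were together in 17 and 13 neurons, ratios of 5.97 and 8.51. Ebf1 with Ebf2 (3.45 and 5.09), Lmx1a with Ebf1 (3.37 and 3.20), Lmx1a with Ebf3 (2.67 and 3.24), Lmx1a with Foxp2 (3.27 and 2.88) and Lmx1a with Satb1 (2.21 and 2.01) followed. Lmx1a took part in 5 of the 10 pairs, but this count is partly set by the filter. Lmx1a-Ebf2 and Lmx1a-Ebf1 could enter only with a ratio above 2, and so could Lmx1a-Ebf3 in library B (4.32 expected). The count is therefore not a result about Lmx1a.

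Sim1 supplied a second set. Sim1 and Otp were together in 28 and 12 neurons, against 9.18 and 3.68 expected, ratios of 3.05 and 3.26. Sim1 and Ebf3 were together in 36 and 29 neurons, ratios of 2.69 and 2.73. The last of the 10 was Foxb1 with Zfhx4, in 13 and 12 neurons (2.20 and 2.02).

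Other pairs were seen less often than expected. Meis2 and Rorb were together in 11 neurons of each library, against 32.5 and 19.6 expected, ratios of 0.338 and 0.561. Ebf3 and Ebf2 were each found less often with Zfhx3, at 0.608 in both libraries for Ebf3 and 0.628 and 0.574 for Ebf2. Lmx1a with Rorb (0.653 and 0.310) and Onecut2, a CUT homeodomain factor, with Foxp2 (0.271 and 0.682) varied more between libraries. Prox1 with Zfhx3 stood at 0.706 and 0.696.

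After every neuron was thinned to 1000 UMIs, none of these 10 pairs kept 10 neurons in each library, so none could be counted, but 7 of them still had ratios above 2 in both libraries. Ebf2-Ebf3 stood at 7.62 (A) and 6.52 (B), Lmx1a-Foxp2 at 4.83 and 2.95 and Sim1-Ebf3 at 3.74 and 3.51. The exceptions were Lmx1a-Ebf1 (2.68 and 1.06), Lmx1a-Ebf3 (0.892 and 3.53) and Foxb1-Zfhx4 (4.45 and 1.21), which rested on 1 to 6 neurons in a library. Some pairs that stayed above 2 rested on as few neurons in libraries A and B. They were Lmx1a-Ebf2 (2 and 5 neurons), Ebf1-Ebf2 (3 and 4), Sim1-Otp (3 and 3) and Lmx1a-Satb1 (4 and 3).

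Members were also paired with 43 peptide and transmitter genes. Of the 155 pairs with at least 10 neurons in each library, 8 were at 2 or more in both. As above, a pair with few expected neurons entered this set only with a high ratio. Ebf1 and Trh, the thyrotropin-releasing hormone gene, were together in 13 and 24 neurons (4.26 and 4.92 times the expected number), and Sim1 and Trh in 20 and 26 (3.30 and 4.03). Sim1 was found with Avp, the vasopressin gene, at 2.95 and 2.81, and Ebf3 with Avp at 3.33 and 3.39. Lmx1a was found with Tac1, the substance P gene, at 3.47 and 3.35 and with Adcyap1, the PACAP gene, at 2.58 and 3.61. Meis2 with Slc18a2, the vesicular monoamine transporter gene (2.25 and 3.02), and Onecut2 with Trh (3.37 and 2.17) completed them.

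Peptide RNA was also present in nuclei that do not make it, to a different degree for each gene. Avp was at 35.9 and 74.3 CPM in neurons and at 14.7 and 28.5 CPM in oligodendrocytes, while Trh was at 16.3 and 34.8 CPM in neurons with 0 UMIs in oligodendrocytes of either library. Tac1 was at 34.9 and 18.6 CPM in neurons and at 11.1 and 9.49 CPM in oligodendrocytes. Trh was not absent from all glia, with 3 UMIs in microglia of library A (50.3 CPM). Hcrt was at 81.3 and 33.5 CPM in neurons and at 70.0 and 47.5 CPM in oligodendrocytes. In library B, Oxt was at 12.2 CPM in neurons and 57.0 CPM in oligodendrocytes. The part of such RNA in the Avp, Tac1 and Slc18a2 ratios, and in clusters led by peptide genes, was not tested.

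Neurons were divided into 36 clusters, numbered here, again without the 54 genes. Antisense or overlapping partners of some members stayed among the genes used for clustering: 4930438E09Rik (Ebf2) is a leading gene of cluster 29, B230323A14Rik (Foxb1) of cluster 4 and Tbx3os1 (Tbx3) of cluster 11. The patterns by cluster are therefore given as a description. The plot of levels by cluster holds the 24 members with at least 20 UMIs in their highest cluster.

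**Figure D4:**
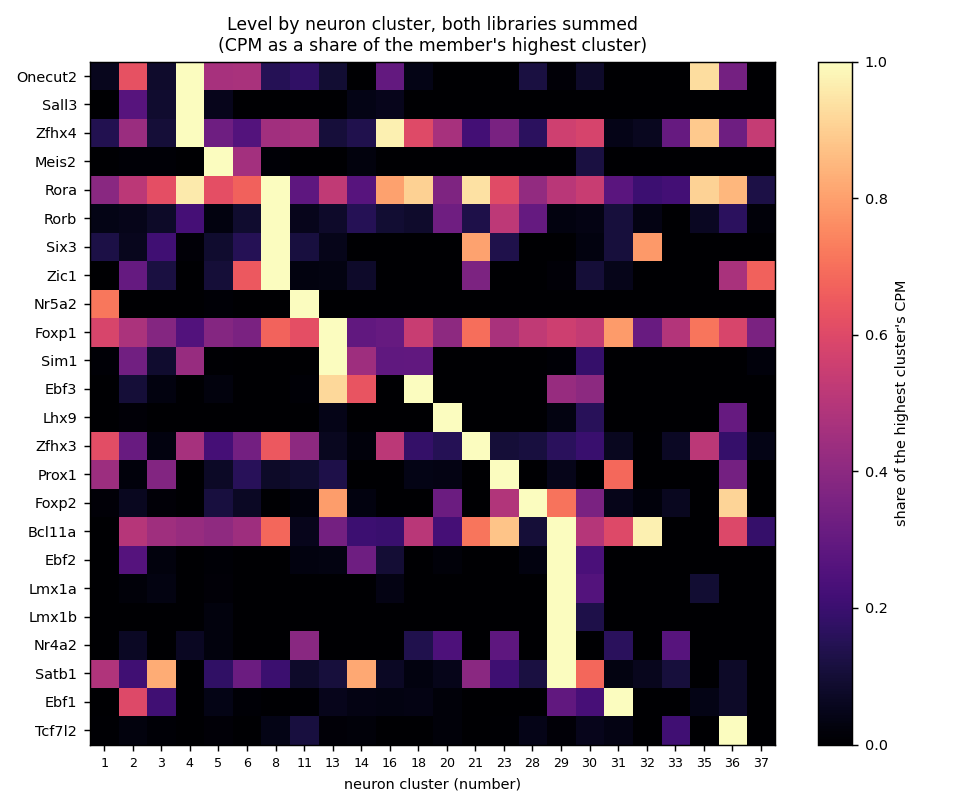
Level of 24 members in 24 neuron clusters (columns, by number), as a share of the CPM in the member's highest cluster, both libraries summed. Lmx1a and Lmx1b are bright in cluster 29 and dark in nearly all others, while Foxp1 and Rora are spread over most clusters.

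Lmx1a, Lmx1b, Ebf2 and Nr4a2 shared their highest cluster. Cluster 29, with 206 nuclei led by Ttc6, 4921518K17Rik, Cdh23, 4930438E09Rik and Pard3b, held 76.2% of the neuronal UMIs of Lmx1a, 85.7% of those of Lmx1b, 54.1% of those of Ebf2 and 52.2% of those of Nr4a2. Lmx1a was detected in 48.5% (A) and 48.7% (B) of its nuclei, and Ebf2 in 24.6% and 31.6%. Satb1 and Bcl11a, a zinc finger factor, also had their highest level there but were spread over 33 of the 36 clusters. Of its nuclei, 113 were glutamatergic and 7 GABAergic.

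Single clusters held most of the RNA of some other members. Cluster 5, 354 nuclei with G630016G05Rik, Sp8, Gm38505 and Slc30a3 among the leading genes, held 72.3% of neuronal Meis2 UMIs, at 350 and 403 CPM. Cluster 20, 92 nuclei led by Hcrt, the orexin gene, Rfx4, Ros1, Gm28501 and Hmcn1, held 51.3% of the UMIs of Lhx9, at 99.1 and 21.7 CPM. Cluster 4, 185 nuclei led by Myo5b, Tanc1, B230323A14Rik, Adamtsl1 and Gm48228, held 48 of 88 Sall3 UMIs and 19 of 38 Foxb1 UMIs and the highest levels of Onecut2 and Zfhx4. Cluster 11, 113 nuclei led by Rxfp1, Tbx3os1, Pomc, Col24a1 and Sytl4, held 56.5% of the UMIs of Nr5a2, a relative of Nr5a1.

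Sim1 was highest in the cluster led by Avp and Oxt. In this cluster 13, 86 nuclei led by Avp, Oxt, Tns1, Pou3f2 and Fign, Sim1 was detected in 62.8% (A) and 55.8% (B) of nuclei, at 596 and 499 CPM. It was spread more widely than Lmx1a, with 21.8% of its neuronal UMIs in that cluster and UMIs in 19 of 36 clusters. Otp was highest in cluster 1, led by Npy, Corin, Acvr1c, Calcr and Csgalnact1, at 132 and 78.4 CPM, with cluster 13 next at 59.0 CPM.

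The clusters led by suprachiasmatic genes carried another set. Cluster 8, 127 nuclei led by 9330185C12Rik, Vipr2, Prr5l, Cdc14a and Prok2, had the highest levels of Rorb, Rora, Six3 and Zic1. Rorb was detected in 92.1% and 76.5% of its nuclei at 2836 and 1590.5 CPM. Cluster 21, 41 nuclei led by Vip, Ankfn1, Syt10, Cadps2 and Stk32a, had the highest levels of Zfhx3 (4159.6 and 3048 CPM) and Lhx1 (143 and 226 CPM). Six3 was second highest in cluster 21.

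Other members had their highest levels elsewhere. Tcf7l2 was detected in 90.9% and 100% of the 11 and 9 nuclei of cluster 36, led by Prkch, Gm29478, Rnf220, Synpo2 and Vav3, at 914 and 894 CPM. Isl1 and Tbx3 were highest in cluster 33, led by Hdc, the histidine decarboxylase gene, Wif1, Slc18a2, Slc16a10 and Nox4, with 14 and 8 UMIs in 22 nuclei, and the 8 of Tbx3 were all from library A. Ebf1 was highest in cluster 31, led by Nlrc5, Slc47a1, Cartpt, Bnc2 and Lepr, at 463 and 656 CPM, a cluster with leading genes of another class. Ebf3 was highest in cluster 18, led by B230323A14Rik, Pde11a, Gm20754, 4930509J09Rik and Synpr, at 287 and 361 CPM. Nr5a1 had 97.7% of its 44 neuronal UMIs in 3 clusters, 27, 15 and 11. Prox1 and Nkx2-1 were highest in cluster 23, led by Tafa4, Ppp1r17, Mbnl3, Rps6ka5 and Sox2ot, with 13.2% and 7.69% of their neuronal UMIs there. Foxp2 was highest in cluster 28, led by Lef1, Rspo2, Rarb, Unc13c and Slc16a10, at 926 and 785 CPM.

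In glia, most members were at or near 0. Of the 54, the number with 0 UMIs in either library was 17 for astrocytes, 24 for oligodendrocytes, 31 for their precursors, 29 for tanycytes and 32 for microglia, against 1 for neurons. Glial classes hold fewer nuclei and fewer UMIs per nucleus, so a count of 0 limits the level less there: 3 counts over both libraries would be 6.22 CPM in oligodendrocytes and 32.8 CPM in microglia, against 0.257 CPM in neurons. Only 18 members passed the low-count filter in the fit of 6 classes, over 6055 genes, and each glial class was compared with neurons within libraries in edgeR. That filter works on CPM per class, so a member can pass through the class in which it is high. Lhx2 (42 neuronal UMIs), Tbx3 (63) and Nkx2-2 (17) were tested, while Sim1 (678) was not. Higher calls of such members in those classes follow a filter on the same values.

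**Figure D5:**
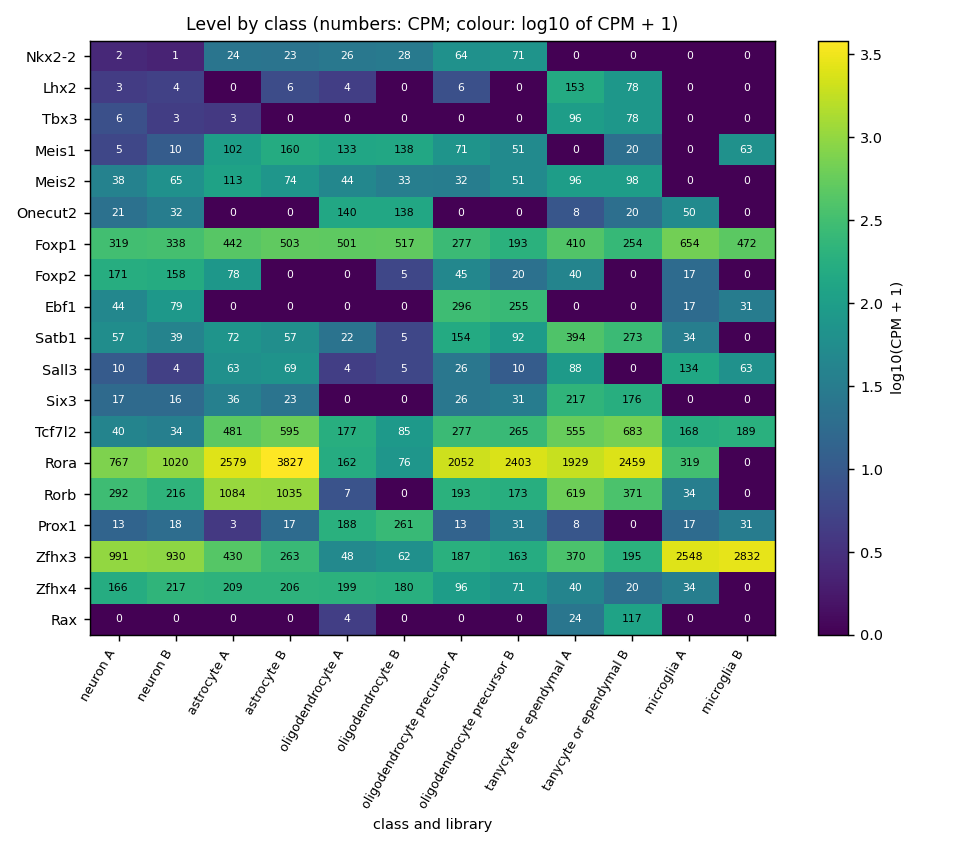
Level (CPM, printed in each cell and coloured as log10 of CPM + 1) of the 18 members tested between classes and of Rax, in 6 classes of library A and library B. Tcf7l2 is above its neuronal level in every glial class, Onecut2 and Prox1 stand out in oligodendrocytes, Ebf1 in oligodendrocyte precursors, Lhx2, Tbx3, Six3 and Rax in tanycytes and Zfhx3 in microglia.

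In astrocytes, 7 of the 18 members were higher than in neurons and 4 lower, where 21.7% and 21.1% of all genes were. Tcf7l2 stood at 481 and 595 CPM against 40.5 and 33.8 in neurons, a log2 difference of 3.88 ± 0.26 (edgeR adjusted p = 1.8e-12). The other TALE factor, Meis1, stood at 102 and 160 CPM against 4.70 and 9.94 (4.24 ± 0.36, edgeR adjusted p = 1.2e-10). Rora (2579 and 3827 CPM against 767 and 1020) and Rorb (1084 and 1035 against 292 and 216) were higher by 1.89 ± 0.52 and 2.12 ± 0.28, with edgeR adjusted p = 0.0039 and 4.3e-07. Nkx2-2, a homeodomain factor of the oligodendrocyte lineage, Sall3 and Meis2 were the other 3 that rose, by 3.96, 3.21 and 1.10.

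The members lower in astrocytes were Ebf1, Onecut2, Foxp2 and Zfhx3. Ebf1 and Onecut2 had 0 UMIs in astrocytes of both libraries, at least 9.56-fold and 4.22-fold lower than in neurons. Foxp2 had 26 UMIs in astrocytes of library A and 0 in library B, and its log2 difference of -1.76 ± 0.39 passed (edgeR adjusted p = 0.00049). Zfhx3 was at 430 and 263 CPM against 991 and 930 (-1.44 ± 0.34, edgeR adjusted p = 0.00099). Library values of the called members did not overlap between the classes, but the calls were made on these same values. As above, the share of all genes without overlap is not given here.

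In oligodendrocytes, 6 members were higher and 7 lower, where 23.7% and 27.8% of all genes were, 51.6% in all. Prox1 stood at 188 and 261 CPM against 13.2 and 18.1 in neurons, a log2 difference of 3.89 ± 0.26 (edgeR adjusted p = 6.3e-13), and Onecut2 at 140 and 138 CPM against 21 and 32.1 (2.49 ± 0.31, edgeR adjusted p = 1.6e-07). Meis1 (133 and 138 CPM), Nkx2-2 (25.8 and 28.5 CPM) and Tcf7l2 (177 and 85.4 CPM) were higher by 4.36, 4.17 and 1.90, and Foxp1 by 0.70. Onecut2 was thus detected in oligodendrocytes and not in astrocytes or precursors, where it had 0 UMIs.

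Several members with high neuronal levels were low in oligodendrocytes. Zfhx3 was at 47.9 and 61.7 CPM there (-4.09 ± 0.42, edgeR adjusted p = 4.4e-09) and Rora at 162 and 75.9 (-2.83 ± 0.58, edgeR adjusted p = 0.00016). Rorb had 2 UMIs and Foxp2 1, neuron to oligodendrocyte ratios of 64.1 (counting interval 17.7 to 529) and 80.5 (14.4 to 3180). Ebf1 and Six3 had 0, at least 9.04-fold and 2.65-fold lower, and Satb1 was lower by a log2 difference of -1.70. Rora was detected in 8.99% and 4.23% of oligodendrocytes and Zfhx3 in 3.27% and 4.23%, under their neuronal shares, and the depth of the classes differed as given above.

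Oligodendrocyte precursors had 5 members higher and 4 lower, where 13.9% and 11.3% of all genes were. Ebf1 stood at 296 and 255 CPM in precursors, in 25.9% and 27.8% of nuclei, against 44.1 and 79.3 CPM in neurons. Its log2 difference was 2.30 ± 0.28 (edgeR adjusted p = 6.8e-07), while the same gene had 0 UMIs in astrocytes, oligodendrocytes and tanycytes. Nkx2-2 was at 64.3 and 71.3 CPM (5.45 ± 0.67, edgeR adjusted p = 5.3e-07), and Meis1 (3.24), Tcf7l2 (2.88) and Satb1 (1.39) were also higher. Onecut2, Foxp2, Zfhx3 and Zfhx4 were lower.

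Tanycytes, the ventricular glia that keep features of hypothalamic progenitors, had 6 members higher and 4 lower, where 13.8% and 14.9% of all genes were. Lhx2 stood at 153 and 78.1 CPM against 3.39 and 3.98 in neurons, a log2 difference of 4.89 ± 0.60 (edgeR adjusted p = 6e-07). Six3 stood at 217 and 176 CPM against 16.6 and 16.4 (3.39 ± 0.39, edgeR adjusted p = 2.9e-07) and Tbx3 at 96.5 and 78.1 against 6.40 and 3.48 (3.83 ± 0.63, edgeR adjusted p = 4.7e-05). Satb1 (394 and 273 CPM) and Tcf7l2 (555 and 683 CPM) were higher by 2.59 and 3.80. Sall3 also passed, with 11 UMIs (A) and 0 (B), so its library values overlapped with those of neurons.

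Rax, which tanycytes are known to keep into adult life, was too rare for the test. It had 3 UMIs in tanycytes of library A and 6 in library B, in 2.61% and 14.0% of nuclei, 1 UMI in oligodendrocytes and 0 in all other classes, neurons included. Its level in tanycytes, pooled over 9 UMIs, was 199.5 times a floor of 3 counts over all neurons. This ratio leaves out the counting error of the 9 UMIs, and the libraries stood at 24.1 (A) and 117 CPM (B). Nkx2-1, also untested, had 6 and 5 UMIs in tanycytes, 4.33 times its neuronal level (counting interval 2.12 to 7.95). The members lower in tanycytes were Ebf1 (0 UMIs, at least 3.29-fold lower), Foxp2, Zfhx3 and Zfhx4.

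In microglia, with 112 nuclei in all, 3 members were higher and 5 lower, where 14.7% and 20.2% of all genes were. Zfhx3 stood at 2548 and 2832 CPM, in 87.9% and 80.4% of nuclei, against 991 and 930 CPM in neurons. The ratio of pooled CPM was 2.73 (counting interval 2.39 to 3.10). With edgeR's normalization factors, which CPM leaves out, the log2 difference was smaller at 0.98 ± 0.33 (edgeR adjusted p = 0.023). Sall3 (8 and 2 UMIs) and Tcf7l2 (10 and 6 UMIs) were higher by 3.46 and 1.76, with edgeR adjusted p = 0.00087 and 0.0078. Meis2, Foxp2, Rora, Rorb and Zfhx4 were lower, and Meis2 had 0 UMIs. The 19 microglial UMIs of Rora were all from library A. The Sall3 values in microglia rest on 10 UMIs in all.

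The median log2 difference of the 18 members was 0.50 in astrocytes, -0.70 in oligodendrocytes, 0.27 in precursors, 0.32 in tanycytes and -2.25 in microglia, against -0.06, -0.13, -0.09, -0.11 and -0.38 over all genes. With members at 0 UMIs set to their bounds, it was -0.47 in oligodendrocytes, 0.39 in tanycytes and 0 in microglia. These members passed the low-count filter partly through the class in which they are high, so neither counts nor medians describe all 54.

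Between the matrices labelled transplanted and control, none of 48 members tested over all nuclei and none of 49 in neurons passed edgeR, where 0% of 15928 and 15082 genes passed. At an unadjusted p of 0.05, 1 gene over all nuclei and 0 in neurons passed, no member among them, and DESeq2 called 0. Since these matrices hold the same nuclei, the comparison cannot show an effect of transplantation.

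Other genes of hypothalamic patterning were read from the same glutamatergic against GABAergic fit. Of 93 further patterning factors, 43 were tested, 7 of them higher and 9 lower, where 3.19% and 1.64% of all genes were. Their median log2 difference was -0.21. Uncx (4.70 ± 0.81, edgeR adjusted p = 0.00096), Bnc2 (2.44), Lmo4 (1.33) and Lmo3 (0.69) were among those higher in glutamatergic neurons. Zic4 (-2.29), Nfix (-1.45), Sox6 (-1.28) and Dach2 (-0.78) were among those lower. Of 17 genes of patterning signals, 7 were tested, and the Wnt targets Lef1 (-1.84) and Axin2 (-0.67) were lower in glutamatergic neurons. Of the 43 peptide and transmitter genes, 27 were tested, 11 of them higher and 12 lower, where 4.83% of all genes were called. The classes were made from Slc17a6, Slc32a1, Gad1 and Gad2, so a call of any of these genes is fixed by that definition.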

How the data were processed

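Single-nucleus RNA was measured on the 10x Chromium 3′ v3.1 chemistry. The deposited matrices hold UMI counts per gene and nucleus made by the authors with Cell Ranger 5.0.1, per the submitters' processing notes, which name the build GRCh38 although the gene IDs are from mouse. The mouse build, and whether counting used the strand, are not given in the sources used here. Of the 54 members, 32 overlap another gene in the annotation.

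All nuclei passed the limits on genes (minimum 300) and mitochondrial UMIs (maximum 5%) and were clustered with scanpy 1.11.5 on 3000 variable genes without the members (40 principal components, 20 neighbours, Leiden resolution 1, and 2 within neurons) and named from marker genes. Scrublet marked 6 nuclei of library A (0.150%), too few to have worked as a filter, and 42 of library B (1.95%), and these were removed, so doublets may remain. Counts summed per class and library were tested with edgeR 4.0.16 (quasi-likelihood, Benjamini-Hochberg adjustment, library as a block, R 4.3.3). The block pairs classes from the same library. Log2 differences from edgeR use its normalization factors and CPM does not, so they can differ from ratios of CPM. DESeq2 1.42.0, no block, no filter and thinning to 1000 UMIs were alternatives. Intervals (95%) and floors (3 counts) cover counting error only. Folds given as at least use the measured level of the higher class, without its counting error. The steps were tested on simulated data. The members, lists and naming rule were chosen with earlier results of these data known. Named are the members that passed (up to 10 by size in each direction), a list of territory factors, the 10 highest and lowest pairs, and up to 5 genes of other lists in each direction. Some genes of the other lists are not reported here.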

Additional observations from a re-analysis of the deposited data

How the results depend on the processing

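Of 138 counts of calls recomputed under alternatives, 108 stayed within 1.5 times. In the comparison of glutamatergic with GABAergic neurons (11 members higher, 9 lower), DESeq2 gave 6 and 5, the fit with no replicate block 3 and 4, and thinning to 1000 UMIs 6 and 4, with 17 members tested. Without the low-count filter 18 were higher. Against neurons, thinning, which left 8 members tested, gave 3 higher and 2 lower in astrocytes, 1 and 4 in oligodendrocytes, 3 and 1 in precursors, 3 and 2 in tanycytes and 0 and 0 in microglia. Fewer members were tested after thinning. Without the filter 8 were lower in astrocytes, 14 in oligodendrocytes, 9 in precursors and 9 in tanycytes, and 1 was higher in microglia. DESeq2 called 2 lower in precursors. Between the labels, the replicate block called 1 gene over all nuclei and 1 in neurons, and leaving out single matrices gave 0 to 1 over all nuclei.

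Of 476 values of called members, 431 stayed called, 44 lost the call and 1 reversed. That was Rorb, at 0.12 without the clusters with more leading markers of another class than of neurons, an alternative chosen after seeing the data. The cause was not tested. Each of 142 single-library values of called members, computed with a UMI added to each class, had the same sign. For Sall3 in tanycytes of library B, with 0 UMIs, that sign came from the added UMI. The calls were made on these same libraries, so equal signs are not a separate check. Pairs at 2 times the expected number numbered 0 after thinning, where none of the 10 kept 10 neurons in each library, though 7 still had ratios above 2 in both. Pairs at 0.5 or less numbered 1 after thinning, 1 without the neurons in the top 5% of UMIs and 1 in the transplanted-labelled matrices. Of 100 pair values, 97 kept their side of 1, and the others were Lmx1a-Ebf3 (thinned, 0.892 in A and 3.53 in B) and Otp-Zfhx4 (without strata 1.07 and 0.776, thinned 0.905 and 1.44). Comparisons of classes with 1 library left out have no residual degrees of freedom and were given as values. Depth limits rare members most, and 20 of 54 could not be tested between transmitter classes.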

Other observations

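Further patterning factors were also read in glia, where 40 of the 93 listed were tested in edgeR. Higher and lower than in neurons were 20 and 10 in astrocytes, 14 and 16 in oligodendrocytes, 17 and 5 in oligodendrocyte precursors, 17 and 9 in tanycytes and 10 and 12 in microglia, where 42.7%, 51.6%, 25.2%, 28.7% and 34.9% of all 6055 genes differed in either direction. Of 17 genes of patterning signals, 8 were tested, with 7 higher and 0 lower in astrocytes, 3 and 1 in oligodendrocytes, 2 and 0 in precursors, 6 and 0 in tanycytes and 2 and 0 in microglia.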
